A study of Mus musculus with 30 samples.

Results

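Stra8, Meioc and Ythdc2 are 3 mouse genes known for the entry of germ cells into meiosis, and their levels were read in every column of a deposited table of gene expression in testis cells. They were chosen by name, as 3 of 20889 gene symbols in the table, and Meioc stands there under its older symbol Gm1564. The values are FPKM, fragment counts scaled by library size and by transcript length, a unit that allows levels of different genes to be compared. All 3 genes were above 0 in all 11 columns.

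STRA8 is a protein of the germ cell nucleus that is induced by retinoic acid, the vitamin A derivative that drives spermatogonia to differentiate and then to begin meiosis, and it is known to activate meiotic genes. MEIOC and YTHDC2 act later on RNA rather than on DNA. MEIOC is a partner protein of YTHDC2, which is an RNA helicase with a domain that recognises the RNA mark N6-methyladenosine, and germ cells that lack either protein begin meiosis but fall back into a mitosis-like division.

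The testes were from C57Bl/6 mice on postnatal day 0, 7, 12 or 14 (P0, P7, P12 and P14). Magnetic beads enriched cells with THY1, a surface protein used to select undifferentiated spermatogonia, at P0, P7, P12 and P14, and cells with KIT, the receptor of differentiating spermatogonia, at P7, P12 and P14. Fluorescence sorting took GFP-positive cells of Oct4-GFP mice at P0 and P7 and of Id4-GFP mice at P7, lines in which GFP reports a gene of early germ cells, and 1 further library is labelled P7 VASA THY1, although Vasa-GFP cells appear in the protocol at P0 alone, so its age is uncertain. The 16 RNA libraries fall into 11 groups, of which THY1 at P0, P7 and P12 and KIT at P7 and P12 have 2 libraries each and the other 6 groups have 1. The table holds 1 value per group, so replicates cannot be compared and no test was made, and neighbours in an order of levels cannot be told apart from measurement error.

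The columns are enriched and not pure. Ddx4, the germ cell RNA helicase also called VASA, ranged from 65.0 FPKM in P0 THY1 to 248 FPKM in P14 THY1, so the germ cell label has its defining marker in each column. Kit itself was highest in the 3 KIT columns, at 72.5 to 103 FPKM, against 7.79 to 38.9 FPKM in the other columns. Thy1 was 18.3 FPKM in P0 THY1 but only 1.64, 1.17 and 1.20 FPKM in the THY1 columns of P7, P12 and P14. The KIT columns of these ages had less, at 0.592, 0.386 and 0.216 FPKM. P0 OCT4-GFP had 5.07 FPKM and P7 OCT4-GFP 1.64 FPKM. In the later columns the Thy1 transcript was thus low, and it did not set P7 THY1 apart from P7 OCT4-GFP. The P0 THY1 column had a summed level of 6998 FPKM over 10 markers of fibroblasts and stroma, against 30.4 to 1410 FPKM in the other 10 columns. Markers of late meiotic cells and spermatids summed to 3634 FPKM in P14 THY1 and 258 FPKM in P7 THY1, against 29.1 to 151 FPKM in the other 9 columns. The upper quartile of FPKM over the genes was 17.2 to 18.2 across the columns. Read depth is not given with the values, and a rough relative depth is described with the processing.

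The stretches just before the transcription starts of Stra8 and Meioc are shown because the levels of these genes parted from each other, as described further on. Both are RefSeq sequences of the build GRCm38.p6, 250 bases long, on the plus strand, at chr6:34920698-34920947 for Stra8 and chr11:102665335-102665584 for Meioc. Capitals mark AGGTCA, the core that nuclear receptors such as those for retinoic acid bind, TACANTGT, the core of sites bound by DMRT proteins, and TTCCCGC, a site of E2F proteins, or its reverse complement.
Stra8: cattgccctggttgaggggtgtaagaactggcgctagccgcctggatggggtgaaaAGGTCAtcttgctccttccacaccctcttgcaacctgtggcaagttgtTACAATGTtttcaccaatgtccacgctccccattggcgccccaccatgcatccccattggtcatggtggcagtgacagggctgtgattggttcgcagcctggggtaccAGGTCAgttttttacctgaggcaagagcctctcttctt
Meioc: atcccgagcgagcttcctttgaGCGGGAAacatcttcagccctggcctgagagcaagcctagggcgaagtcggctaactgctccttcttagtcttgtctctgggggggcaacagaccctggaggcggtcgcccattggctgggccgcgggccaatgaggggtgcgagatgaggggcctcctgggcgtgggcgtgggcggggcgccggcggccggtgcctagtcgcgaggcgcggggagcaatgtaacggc
The Stra8 stretch held AGGTCA at 2 places, from base -194 to -189 and from base -38 to -33 before the start, and TACANTGT once, from base -146 to -139. The Meioc stretch held neither, and held TTCCCGC once on the minus strand, from base -228 to -222. On either strand AGGTCA occurs in 14.0%, TACANTGT in 2.35% and TTCCCGC in 3.82% of 32851 windows of this length from all genes in the same tables. CCAAT, left in lower case, occurred 4 times in the Stra8 stretch and 2 times in that of Meioc, and it is in 33.8% of windows. CNCCTCAG, the motif reported for STRA8, and CACGTG, the E-box that MAX binds, were in neither stretch and are in 6.42% and 6.02% of windows. No motif overlapped another in the stretches shown. The Meioc stretch was 67.6% G and C with 22 CpG, more CpG than in 85.2% of windows, while that of Stra8 was 54.8% G and C with 5 CpG, and the median window had 52.4% and 6. The motifs were picked with these sequences in view, and a match describes letters only.

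Stra8, the retinoic acid target, had the widest range of the 3 genes over all 11 columns, through its low level in P0 THY1. Its level was 1.35 FPKM in P0 THY1 and 21.4 FPKM in P0 OCT4-GFP. At P7 it was 39.7 FPKM in THY1, 107 FPKM in VASA THY1, 88.2 FPKM in OCT4-GFP, 61.5 FPKM in ID4-GFP and 106 FPKM in KIT. In the older testes it was 32.0 FPKM in P12 THY1, 192 FPKM in P12 KIT, 35.0 FPKM in P14 THY1 and 251 FPKM in P14 KIT. The highest column was 186 times the lowest, and 11.7 times when P0 THY1 is left out. Without P0 THY1 Meioc had the wider range, 35.5 times. The order from high to low runs from P14 KIT and P12 KIT through P7 VASA THY1, P7 KIT and the 2 GFP columns of P7 to the THY1 columns of P7, P14 and P12, with the P0 columns last. Every KIT column, at 106 to 251 FPKM, lay above every THY1 column without VASA, at 1.35 to 39.7 FPKM. With P7 VASA THY1 among the THY1 columns they overlapped, as it stood at 107 FPKM beside 106 FPKM in P7 KIT. The share of all genes whose columns separate in such a way was not counted. In P12 KIT, Stra8 ranked 136 among all genes of the table. In bulk samples, fewer cells of a type and less RNA per cell cannot be told apart, here and below.

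Meioc, the partner of YTHDC2, was lowest where Stra8 was already well expressed. It was listed at 12.1 FPKM in P0 THY1 and 12.2 FPKM in P0 OCT4-GFP. At P7 it was 15.9 FPKM in THY1, 33.8 FPKM in VASA THY1, 6.45 FPKM in OCT4-GFP, 6.12 FPKM in ID4-GFP and 31.4 FPKM in KIT. It then stood at 45.4 FPKM in P12 THY1, 194 FPKM in P12 KIT, 110.1 FPKM in P14 THY1 and 217 FPKM in P14 KIT. All 4 columns of P12 and P14, at 45.4 to 217 FPKM, lay above all 7 columns of P0 and P7, at 6.12 to 33.8 FPKM. The share of all genes that separate by age like this was not counted. The highest column was 35.5 times the lowest, and in P12 KIT Meioc ranked 135 among all genes, next to Stra8.

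Ythdc2, the helicase, was the flattest of the 3 genes. Its levels were 11.7 FPKM in both P0 columns. At P7 they were 15.1 FPKM in THY1, 15.8 FPKM in VASA THY1, 10.9 FPKM in OCT4-GFP, 11.9 FPKM in ID4-GFP and 17.7 FPKM in KIT. They were 22.1 FPKM in P12 THY1, 47.8 FPKM in P12 KIT, 33.5 FPKM in P14 THY1 and 54.4 FPKM in P14 KIT. Within P0 and P7 the highest column was only 1.63 times the lowest, whereas Meioc spanned 5.53 times and Stra8 79.3 times over the same 7 columns. The range of Stra8 there starts from 1.35 FPKM in P0 THY1. The 4 columns of P12 and P14 again lay above all 7 others, a separation not counted over all genes, and the whole range was 5.0 times. Relative to the 8 germ cell genes of the same column this separation was lost for Ythdc2, with 27.3% in P14 THY1 against 35.9% in P0 THY1, while for Meioc it held, at 84.9% to 282% against 6.77% to 63.2%. Ythdc2 was never in the top ranks, with between 65.8% and 92.2% of the table's genes below it.

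**Figure D1:**
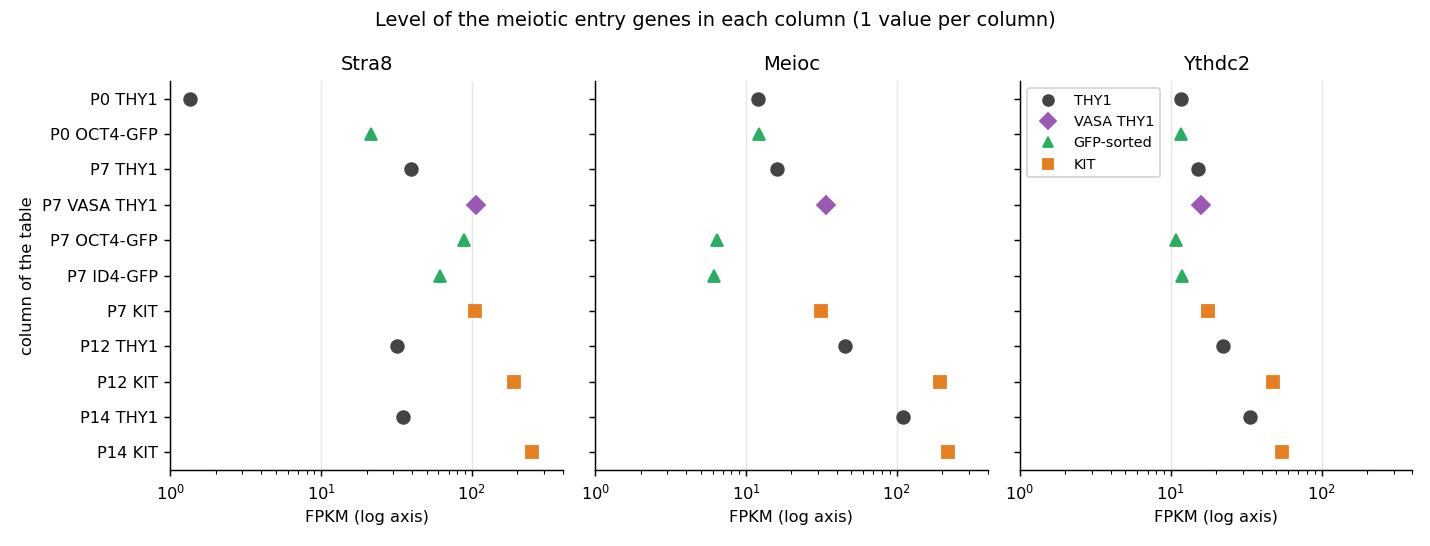
FPKM on a log axis of Stra8, Meioc and Ythdc2 in the 11 columns of the table, 1 point per column, with colour and shape for the selection. Stra8 spans 1.35 to 251 FPKM and is high in the KIT columns, whereas Meioc and Ythdc2 are highest in the columns of P12 and P14.

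KIT-selected and THY1-selected cells were compared at P7, P12 and P14. A gene was counted as higher or lower when log2(FPKM + 1) differed by at least 1, which is 2-fold on that scale, with at least 5 FPKM in the higher column; the scale understates changes of low genes. At P12 all 3 genes were higher in KIT, the only 1 of 13 comparisons in which all 3 passed, where 4.66% of 10106 genes tested were higher. After scaling each column to the median of 8 germ cell genes, all 3 passed as higher in KIT at P14, by 3.45, 1.64 and 1.33. At P12 Ythdc2 no longer passed, at 0.67. On that scale 3426 genes were higher in P14 KIT, against 859 as deposited, and the median of all tested genes was 0.74. At P12 that median was -0.38, with 165 genes higher. At P12 as deposited, Stra8 differed by 2.54 on the log2 scale, with 4 genes of the table showing a larger difference. Meioc differed by 2.07, with 22 genes larger, and Ythdc2 by 1.08, with 386 genes larger.

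At P7, KIT was above THY1 for Stra8 by 1.39, and 2.78% of 9817 genes tested passed as higher. The log2 difference was 0.94 for Meioc, just outside the rule, and 0.21 for Ythdc2. This result rests on which THY1 column is used: P7 VASA THY1 had 107 FPKM of Stra8 beside 106 FPKM in P7 KIT, a log2 difference of -0.021, and Meioc then differed by -0.10. At P14 Stra8 was higher in KIT by 2.81, with 3 genes larger, and 8.58% of 10015 genes passed as higher. Meioc differed by 0.97 and Ythdc2 by 0.68, so neither passed at P14 as deposited, where the THY1 column stood at 110.1 and 33.5 FPKM. The nearest values inside the rule, over all 13 comparisons, were 1.04 for Meioc in P7 VASA THY1 against P7 THY1 and the 1.08 of Ythdc2 above.

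Markers of other cells moved along the same axis. Leydig cell markers, of the steroid-producing cells between the tubules, summed to 1216 FPKM in P7 KIT against 167 FPKM in P7 THY1, with 8 of 9 tested higher, and to 720 FPKM against 211 FPKM at P14, with 8 of 9 higher. At P12 they summed to 284 against 157 FPKM, while Sertoli cell markers, of the supporting cells of the tubule, summed to 741 FPKM in KIT against 1913 FPKM in THY1 and were lower for 12 of 15. The late meiotic and spermatid markers at P14 summed to 151 FPKM in KIT against 3634 FPKM in THY1, with 8 of 8 lower in KIT. Of all genes tested, 2.78% were higher in KIT at P7 and 8.58% at P14, and 6.51% were lower at P12 and 15.7% at P14. The part of these cells in the differences of the 3 genes was not tested. Against the median of 8 germ cell genes in the same column, Stra8 was 268% in P12 KIT and 59.9% in P12 THY1, Meioc 271% and 84.9%, and Ythdc2 66.9% and 41.4%. On that scale all 3 genes were still at a higher level in P12 KIT than in P12 THY1.

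Over time within a selection, Meioc as deposited passed the rule in steps at which Stra8 did not. From P7 to P12 in KIT cells Meioc was higher by 2.59 and Ythdc2 by 1.38, and 5.83% of 9962 genes tested were higher, whereas Stra8 differed by 0.85. Only 39 genes had a larger difference than Meioc there, and 253 a larger one than Ythdc2. With germ cell scaling Ythdc2 no longer passed, at 0.88, and with quantile normalization Stra8 passed as well, at 1.14. Leydig markers summed to 1216 FPKM in P7 KIT and 284 FPKM in P12 KIT, with 7 of 10 lower and 1 higher. Endothelial markers summed to 191 and 58.8 FPKM, with 7 of 8 lower, beside 4.07% of all genes lower. The part of these cells was not tested. From P12 to P14 in KIT cells the differences were 0.39 for Stra8, 0.17 for Meioc and 0.18 for Ythdc2, and none passed, where 16.7% of 9842 genes passed in either direction.

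In THY1 cells Meioc was higher at P12 than at P7 by 1.45, where 6.1% of 10018 genes were higher, and higher at P14 than at P12 by 1.26, where 15.9% of 10597 were higher. Ythdc2 differed by 0.52 and 0.58 in these steps, and Stra8 by -0.30 and 0.13. With P7 VASA THY1 as the P7 column, Meioc differed by 0.41 from P7 to P12 and did not pass, and Stra8 differed by -1.71 and passed as lower. In the columns without VASA the Stra8 level lay between 32.0 and 39.7 FPKM from P7 to P14. Against the 8 germ cell genes Meioc was 84.9% at P12 and 89.5% at P14. The median of these 8 was 53.5 FPKM in P12 THY1 and 123 FPKM in P14 THY1. On that scale the log2 difference was 0.075 for Meioc, -1.04 for Stra8 and -0.58 for Ythdc2. The median of all tested genes was -1.18. Late meiotic and spermatid markers summed to 45.0 FPKM in P12 THY1 and 3634 FPKM in P14 THY1, and Sertoli markers to 1913 and 75.6 FPKM; their part in the Meioc difference was not tested.

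From P0 to P7 Stra8 was higher in both selections that have these ages. In THY1 cells Stra8 was higher at P7 by 4.11, the largest difference of the 39 computed for the 3 genes, where 6.34% of 10880 genes were higher. Meioc differed by 0.37 and Ythdc2 by 0.34, values that were -0.10 and -0.13 with germ cell scaling. With P7 VASA THY1 as the P7 column, Meioc also passed as higher, by 1.41. Fibroblast and stroma markers summed to 6998 FPKM at P0 and 346 FPKM at P7 and were lower at P7 for 10 of 10. Of all genes 17.2% were lower, and the part of these cells was not tested. In the GFP-sorted Oct4-GFP cells, where the same markers summed to 68.0 and 92.9 FPKM, Stra8 was higher at P7 by 2.00, with 2.49% of 9482 genes higher. Meioc differed there by -0.82, from 12.2 to 6.45 FPKM, and Ythdc2 by -0.10, which was 0.14 with germ cell scaling.

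**Figure D2:**
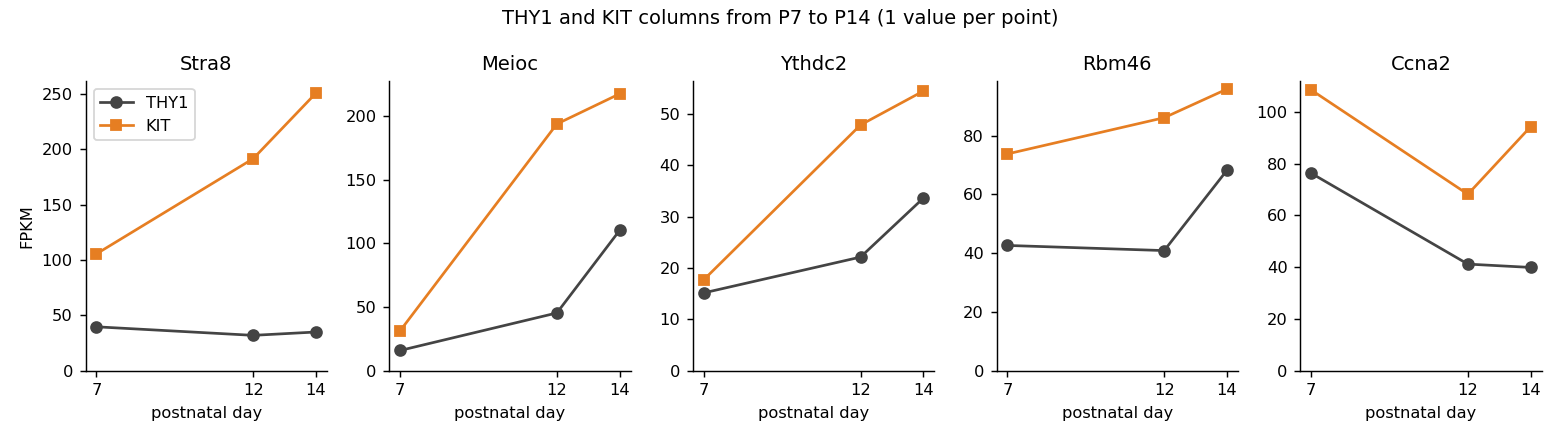
FPKM of Stra8, Meioc, Ythdc2, their partner Rbm46 and the mitotic cyclin Ccna2 at postnatal days 7, 12 and 14 in THY1 (dark circles) and KIT (orange squares) columns, 1 value per point and each panel on its own axis from 0. Stra8 stays between 32.0 and 39.7 FPKM in THY1 while Meioc goes from 15.9 to 110.1 FPKM.

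In sorted GFP-positive cells the genes differed from THY1 cells unequally. At P0 Stra8 was higher in OCT4-GFP than in THY1 by 3.25, where 14.5% of 11087 genes were higher, and Meioc and Ythdc2 differed by 0.01 and by less than that. With germ cell scaling Stra8 was still higher, by 2.04, and Meioc and Ythdc2 passed as lower, at -1.50 and -1.51. These values were near the median of all tested genes on that scale, -1.50. Of the 9258 genes that passed there, 0.605% were higher. At P7 Stra8 was higher in OCT4-GFP than in THY1 by 1.13, where 8.88% of 9996 genes were higher, while Meioc differed by -1.19 and passed as lower, where 11.8% were lower. Ythdc2 differed by -0.44. With germ cell scaling Stra8 did not pass, at 0.30, Meioc was lower at -1.97 and Ythdc2 passed as lower at -1.24. There the median of all tested genes was -0.68, and 1.74% of the 3852 genes that passed were higher. Set against P7 VASA THY1 in place of P7 THY1, Stra8 differed by -0.28, so its higher level in OCT4-GFP held for 1 of the 2 THY1 columns of P7. Macrophage markers summed to 244 FPKM in P7 OCT4-GFP, 47.6 FPKM in P7 THY1 and 13.2 FPKM in P7 ID4-GFP. Other somatic markers were lower in P7 OCT4-GFP than in P7 THY1, with sums of 151 against 879 FPKM for Sertoli cells (10 of 12 lower), 92.9 against 346 FPKM for stroma (8 of 8), 12.6 against 161 FPKM for endothelium (8 of 8) and 41.6 against 225 FPKM for peritubular myoid cells (6 of 6). The part of these cells was not tested.

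The 2 GFP lines were compared with each other at P7. ID4-GFP differed from OCT4-GFP by -0.51 for Stra8, -0.06 for Meioc and 0.12 for Ythdc2, and none passed, where 1.69% of 9157 genes passed in either direction. Of these 9157, 381 had a lower difference than Stra8. Meioc was at 6.12 and 6.45 FPKM in the 2 lines. P7 VASA THY1 was above P7 THY1 by 1.41 for Stra8 and 1.04 for Meioc, with 7.66% of 10042 genes higher, and by 0.05 for Ythdc2. With germ cell scaling the first 2 values were 0.79 and 0.44 and did not pass, and Ythdc2 was at -0.55.

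**Figure D3:**
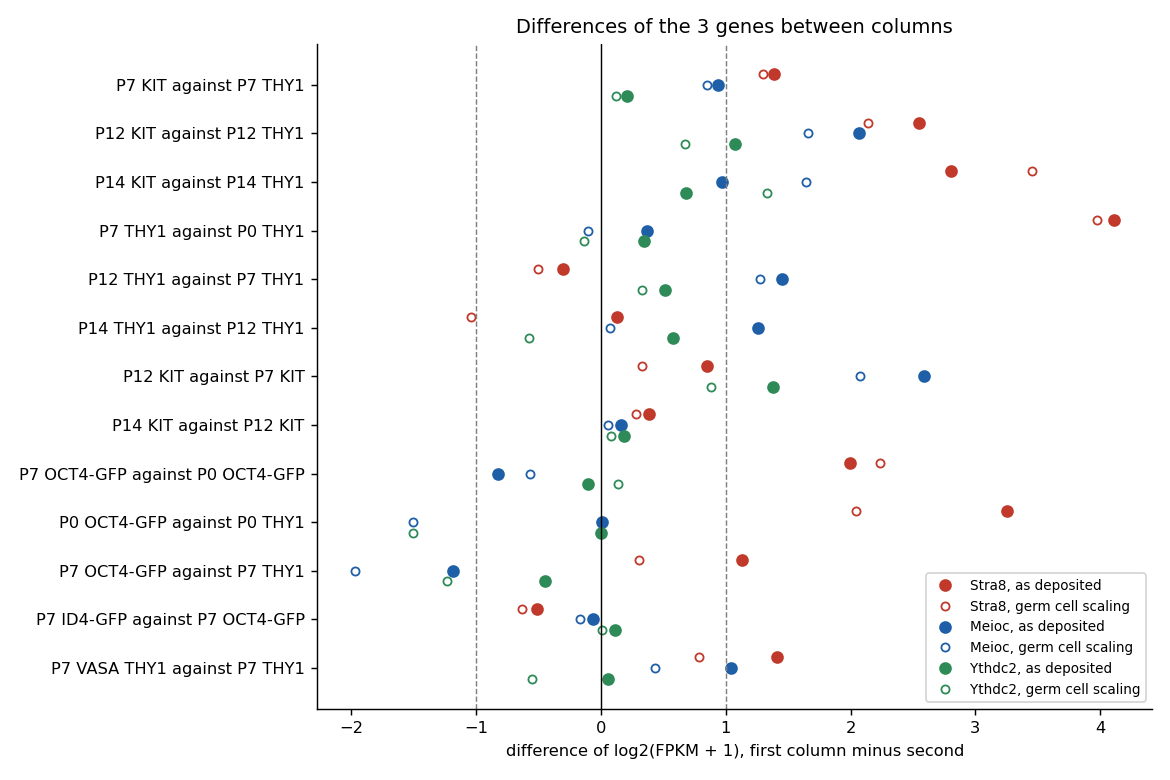
Differences of log2(FPKM + 1) of the 3 genes in 13 comparisons, first column minus second, with filled points for FPKM as deposited and open points after scaling each column to the median of 8 germ cell genes; dashed lines mark a 2-fold difference. Only P12 KIT against P12 THY1 has all 3 filled points beyond a line, and only P14 KIT against P14 THY1 has all 3 open points above 1. With that scaling the median of all tested genes in the P14 comparison is 0.74.

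The ratio of Stra8 to Meioc within a column is unchanged by any single factor applied to that column, though not by quantile normalization. The FPKM of Stra8 was 0.112 times that of Meioc in P0 THY1 and 1.76 times in P0 OCT4-GFP. At P7 the ratio was 13.7 in the Oct4-GFP and 10.1 in the Id4-GFP cells, 3.36 in KIT, 3.17 in VASA THY1 and 2.49 in THY1. In THY1 cells it was 0.705 at P12 and 0.318 at P14, and in KIT cells 0.989 and 1.15. Stra8 thus exceeded Meioc in all 5 columns of P7, in P0 OCT4-GFP and in P14 KIT. The THY1 columns of P12 and P14 had more Meioc than Stra8, and the KIT columns of these ages had close to equal levels.

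The ratio within the pair that acts on RNA also changed. The FPKM ratio of Meioc to Ythdc2 was 1.03 and 1.04 in the P0 columns, 0.593 in P7 OCT4-GFP and 0.515 in P7 ID4-GFP, the only 2 columns in which Ythdc2 was the higher gene. It was 1.05 in P7 THY1, 1.77 in P7 KIT, 2.15 in P7 VASA THY1 and 2.05 in P12 THY1. It reached 3.28 in P14 THY1, 3.99 in P14 KIT and 4.05 in P12 KIT.

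**Figure D4:**
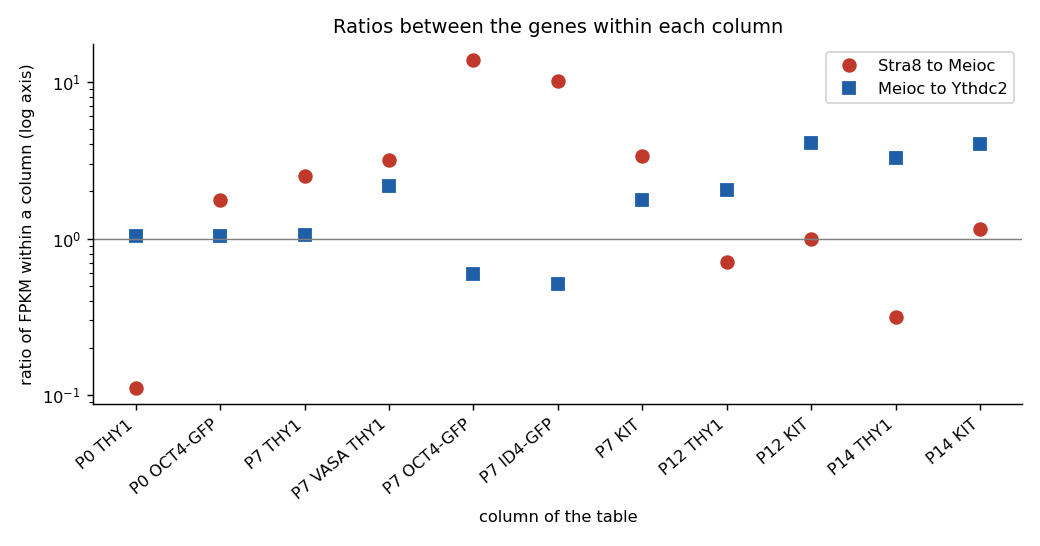
Ratio of FPKM of Stra8 to Meioc (red circles) and of Meioc to Ythdc2 (blue squares) within each of the 11 columns, on a log axis with a line at a ratio of 1. The ratio of Stra8 to Meioc runs from 0.112 in P0 THY1 to 13.7 in P7 OCT4-GFP, and that of Meioc to Ythdc2 from 0.515 in P7 ID4-GFP to 4.05 in P12 KIT.

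Meioc and Ythdc2 had like patterns over the columns, and Stra8 had another. Pearson's r of log2(FPKM + 1) over the 11 columns was 0.974 between Meioc and Ythdc2, 0.476 between Stra8 and Meioc and 0.535 between Stra8 and Ythdc2. The columns share ages and selections and are not independent, so these are descriptions. Among 12268 other genes with at least 5 FPKM in some column, Ythdc2 was the 2nd most like Meioc, and Meioc the 3rd most like Ythdc2. Spearman's rho between them was 0.936, which is place 16 for Meioc and 13 for Ythdc2, and r was 0.959 over the 9 columns without P14 and 0.935 after the germ cell scaling. The other genes most like Meioc were 0610010F05Rik at 0.978, Prss50 and Ly6k at 0.970 and Thoc1, a subunit of the complex that couples transcription to RNA export, at 0.967. For Ythdc2 they were Tc2n at 0.978, 0610010F05Rik at 0.974, 5830433M19Rik at 0.967 and Sycp3, a protein of the axis of meiotic chromosomes, at 0.956. For Stra8 they included C330027C09Rik at 0.940, Snx14 at 0.939, Slc17a7 at 0.935 and Zfp597 at 0.933. After the germ cell scaling, 2 of the 5 genes most like Stra8 stayed among its first 100, with r down to 0.127. For Meioc 4 of 5 stayed and for Ythdc2 5 of 5. Without the P14 columns all 5 for Stra8 stayed among its first 100, but 0 among its first 5.

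**Figure D5:**
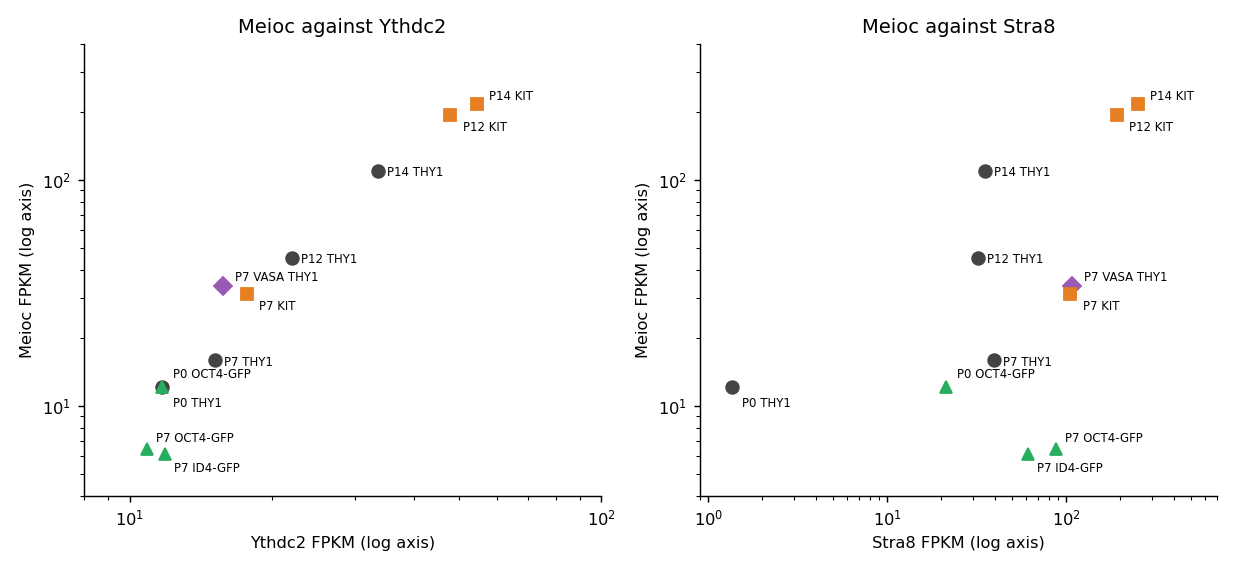
FPKM of Meioc against Ythdc2 (left) and against Stra8 (right) on log axes, 1 labelled point per column, with colour and shape for the selection as in the plot of levels by column. The left points mostly rise together, from 6.12 to 217 FPKM of Meioc. They do not all lie on 1 line: P0 OCT4-GFP and P7 ID4-GFP have 11.7 and 11.9 FPKM of Ythdc2 but 12.2 and 6.12 FPKM of Meioc. On the right the GFP-sorted columns of P7 have high Stra8 beside the lowest Meioc levels.

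The partner and a target of the pair were followed over the same columns. Rbm46, an RNA-binding protein that works with MEIOC and YTHDC2, ranged from 22.8 FPKM in P0 THY1 to 95.8 FPKM in P14 KIT. It was 42.6 FPKM in P7 THY1, 73.7 FPKM in P7 KIT, 40.9 FPKM in P12 THY1 and 86.1 FPKM in P12 KIT, so at P12 it was higher in KIT by 1.06 and passed the rule. From P7 to P12 in KIT cells it differed by 0.22, unlike Meioc and Ythdc2. Ccna2, the mitotic cyclin whose transcript the pair is known to lower, ranged from 39.9 FPKM in P14 THY1 to 130 FPKM in P0 OCT4-GFP. It was 108 FPKM in P7 KIT, 68.2 FPKM in P12 KIT and 94.2 FPKM in P14 KIT, levels that overlap with those of the P0 and P7 columns, 58.9 to 130 FPKM. In THY1 it was 76.3 FPKM at P7, 41.2 FPKM at P12 and 39.9 FPKM at P14. The P12 and P14 THY1 levels thus lay below all P0 and P7 columns, and the reason was not tested.

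Of 17 regulators of meiotic entry in the table, the 3 genes included, 6 were higher and 1 was lower in P12 KIT than in P12 THY1 among the 14 tested. Beside Stra8, Meioc, Ythdc2 and Rbm46 these were Tex15, needed for meiotic recombination and silencing of transposons, at 396 against 123 FPKM, and Dmrtb1, also called DMRT6, at 5.84 against 1.89 FPKM. Nanos3, a translational repressor of undifferentiated germ cells, was lower, at 10.6 against 32.6 FPKM. Dazl, a germ cell RNA-binding protein needed for the response to retinoic acid, was 805 against 475 FPKM and did not pass. Dmrt1, which holds back Stra8 in spermatogonia, was 147 against 132 FPKM and did not pass either. The median log2 difference of the 14 was 0.79, beside 0.02 over all genes tested, of which 4.66% were higher and 6.51% lower. The 3 genes are among the 6 and the 14, so this count and median in part repeat their own values. They are no separate support. Dmrtb1 was near the minimum of 5 FPKM. At P7 2 of 14 were higher and 1 lower, beside 2.78% and 2.73% of all genes, and at P14 6 were higher and 1 lower, beside 8.58% and 15.7%. The gene of MEIOSIN, the partner of STRA8, was not analysed here.

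Genes of meiotic prophase, the program that follows entry, were counted in the same comparisons from a list of 31 that holds none of the 3 genes. In P12 KIT against P12 THY1, 23 of 31 were higher and none lower, with a median log2 difference of 1.28, beside 4.66% and 6.51% of all genes. Among them Prdm9, which marks sites of meiotic breaks, was 31.5 against 4.33 FPKM, Dmc1, a meiotic recombinase, was 85.1 against 23.4 FPKM, and Sycp3 was 523 against 229 FPKM. In P12 KIT against P7 KIT, 23 of 31 were also higher and none lower, with a median of 1.82, beside a median of 0.00 over all genes tested and 5.83% of them higher. In this step Meioc and Ythdc2 passed and Stra8 did not. In P7 KIT against P7 THY1, 4 of 21 tested were higher, with a median of 0.36, beside 2.78% of all genes, and there Stra8 passed and Meioc and Ythdc2 did not. In P7 OCT4-GFP against P0 OCT4-GFP none of 22 tested was higher and 2 were lower, with a median of -0.70, beside 2.49% higher and 3.00% lower of all genes, in the comparison in which Stra8 was higher by 2.00. In THY1 cells 13 of 27 were higher and none lower at P12 against P7, beside 6.1% and 2.32% of all genes. At P14 against P12, 13 of 29 were higher and none lower, beside 15.9% and 16.6%. As deposited, Meioc passed in both of these steps and Stra8 in neither. In some other comparisons the pairing was not the same. In P0 OCT4-GFP against P0 THY1, 15 of 22 were higher and none lower, with a median of 1.48. Of all genes 14.5% were higher and 21.9% lower, and only Stra8 of the 3 passed. In P14 KIT against P14 THY1, 11 of 31 were higher and 3 lower, beside 8.58% and 15.7%. As deposited, only Stra8 passed there. In P7 VASA THY1 against P7 THY1, 11 of 24 were higher and none lower, beside 7.66% and 10.3%. There Stra8 and Meioc passed. Rec8, the meiotic cohesin subunit, was 11.2 FPKM in P0 OCT4-GFP and 19.8 FPKM in P7 OCT4-GFP, against 14.4 FPKM in P7 VASA THY1 and 28.1 FPKM in P14 KIT.

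The retinoic acid list of 18 genes moved less uniformly. In P7 KIT against P7 THY1, 4 of 13 tested were higher and 1 was lower, in P12 KIT against P12 THY1 2 of 14 were higher and 1 lower, and at P14 5 of 13 were higher and 2 lower. The shares of all genes were 2.78% higher and 2.73% lower at P7, 4.66% and 6.51% at P12, and 8.58% and 15.7% at P14, so the lower counts at P12 and P14 are near those shares. Crabp1, a retinoic acid binding protein of the cytoplasm, was 296 against 89.3 FPKM at P7, 142 against 60.4 FPKM at P12 and 249 against 81.2 FPKM at P14, higher in KIT at each age. Rara, a retinoic acid receptor, stayed between 9.54 and 19.8 FPKM over the 11 columns. Aldh1a1, an enzyme that makes retinoic acid, was 270 FPKM in P7 KIT and 154 FPKM in P7 THY1, but 27.4 FPKM in P7 OCT4-GFP and 2.99 FPKM in P7 ID4-GFP, where Stra8 was 88.2 and 61.5 FPKM. Aldh1a1 is also expressed in Sertoli and Leydig cells, whose markers summed to 24.0 and 25.7 FPKM in P7 ID4-GFP. They summed to 151 and 67.3 FPKM in P7 OCT4-GFP, 879 and 167 FPKM in P7 THY1 and 582 and 1216 FPKM in P7 KIT. In P7 VASA THY1 they summed to 1239 and 81.5 FPKM, with Aldh1a1 at 135 FPKM. The part of these cells in the Aldh1a1 levels was not tested.

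The repressors that hold meiotic genes silent in mitotic cells, MAX, MGA and the PRC1.6 subunits, were a list of 14. None was higher or lower in P12 KIT against P12 THY1, and none in P12 KIT against P7 KIT, beside 4.66% higher and 6.51% lower of all genes in the first and 5.83% and 4.07% in the second, so with 14 genes these counts are near the share of all genes. Mga was 71.3 FPKM in P12 THY1 and 104 FPKM in P12 KIT. E2f6, a repressor of the E2F family, was 24.6 and 24.8 FPKM in the same columns.

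Few other genes of the N6-methyladenosine pathway passed the rule in P12 KIT, against P12 THY1 or against P7 KIT. Of 18 writers, erasers and other readers of this mark, 1 was higher and none lower in P12 KIT against P12 THY1. This was the writer subunit Zc3h13 at 33.5 against 15.6 FPKM. The list median was 0.22, and of all genes 4.66% were higher and 6.51% lower. In P12 KIT against P7 KIT 1 was higher and none lower, with a median of 0.13, beside 5.83% of all genes higher and 4.07% lower. In P14 KIT against P14 THY1 none was higher and 2 were lower, beside 8.58% and 15.7%. In P0 OCT4-GFP against P0 THY1, 4 were higher and 3 lower, beside 14.5% and 21.9%. The nuclear reader Ythdc1 ranged over the 11 columns by 1.77 times, from 34.9 to 61.8 FPKM, and the cytoplasmic readers Ythdf1, Ythdf2 and Ythdf3 by 2.36, 1.67 and 3.24 times, beside 5.0 times for Ythdc2. Ythdf3 was 55.7 FPKM in P12 THY1 and 44.1 FPKM in P12 KIT, the opposite order from Ythdc2.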

How the data were processed

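RNA was measured in the columns described above, from directional libraries depleted of ribosomal RNA, per the labels' protocols. The authors deposited FPKM. Per the submitters' processing notes, the build was mm9 and the tools were Cufflinks 2.1.1, TopHat2 2.0.9 and CASAVA, while annotation, strand setting and how 2 libraries became 1 value are not given in the sources used here. A step in the lowest FPKM values gave a rough relative depth: against P14 THY1, 1 step was worth 0.957 to 2.04 times in 9 columns and, less certainly, 3.72 times in P7 THY1, so low values are least precise there. No column of the table was left unused.

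From the FPKM, log2(FPKM + 1) differences were computed with Python 3.11.15, numpy 2.4.6 and pandas 2.3.3 and drawn with matplotlib 3.10.9, after the scripts were tested on simulated data. The tested genes had at least 5 FPKM in either compared column. A limma fit was planned for a table with a column per library and was not run. Members and gene lists were chosen with earlier results of these data known. Of 265 list symbols, 249 matched directly, 12 through a synonym and 4 not at all. The text names the 3 genes, Rbm46, Ccna2, sort markers, and for likeness the 5 genes with the highest r, of which 1 is not reported here. Up to 4 list members with the largest differences per direction were also to be named; Dazl, Dmrt1, Sycp3, Rec8, Crabp1, Rara, Aldh1a1, Mga, E2f6 and the YTH readers were chosen for their roles, after their values were seen. Alternatives were pseudocounts of 0.1 and 0.01 FPKM, a 4-fold rule, other minimum levels, 3 scalings and another P7 THY1 column. RefSeq lists 0 genes that overlap any of the 3. The 8 bisulfite and the 6 chromatin and input samples of the 30 in the series were not analysed here.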

Additional observations from a re-analysis of the deposited data

Results flagged for a closer look

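In 5 instances a gene differed in opposite directions in cells of different selection, or at different ages, under the same contrast; each is 1 value per group and none was tested. From P0 to P7 Meioc differed by 0.37 in THY1 cells and by -0.82 in Oct4-GFP cells, and Ythdc2 by 0.34 and -0.10, on the log2 scale. From P7 to P12 Stra8 differed by -0.30 in THY1 cells and by 0.85 in KIT cells. Oct4-GFP against THY1 cells, Meioc differed by 0.0073 at P0 and by -1.19 at P7, and Ythdc2 by 0.00032 at P0 and by -0.44 at P7. These P0 values are hardly a difference. With upper-quartile scaling they were -0.069 and -0.076, the same direction as at P7. Of the 10 values as deposited only the -1.19 of Meioc passed the 2-fold rule. With germ cell scaling the values of Meioc and Ythdc2 in THY1 cells from P0 to P7 changed sign, to -0.10 and -0.13. That of Ythdc2 in Oct4-GFP cells changed to 0.14. Those of Meioc and Ythdc2 at P0 were -1.50 and -1.51, where the median of all tested genes was -1.50.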

How the results depend on the processing

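Of 324 values of the 39 differences under an alternative, 296 kept their side of the rule, of which 11, none passing it, changed sign (5 under germ cell scaling, 3 under quantile normalization, 2 under upper-quartile scaling, 1 with VASA THY1), and 28 did not; the cause was not tested, except that a 4-fold rule asks for more. Under the 4-fold rule these no longer passed: Stra8 at 1.39 (P7 KIT against THY1), 2.00 (OCT4-GFP, P7 against P0), 1.13 (P7 OCT4-GFP against THY1) and 1.41 (VASA THY1 against THY1); Meioc at 1.45 and 1.26 (THY1, P12 against P7 and P14 against P12), -1.19 (P7 OCT4-GFP against THY1) and 1.04 (VASA THY1 against THY1); Ythdc2 at 1.08 (P12 KIT against THY1) and 1.38 (KIT, P12 against P7). With P7 VASA THY1 in place of P7 THY1, Stra8 reversed to -0.021 in P7 KIT against THY1 and to -0.28 in P7 OCT4-GFP against THY1 and differed by -1.71 from P7 to P12 in THY1, and Meioc differed by 1.41 from P0 to P7 and by 0.41 from P7 to P12.

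Germ cell scaling moved the median of all tested genes by -1.53 to 0.62 between comparisons, the other scalings by less than 0.1. Under it P12 KIT against THY1 gave 0.67 for Ythdc2; P14 KIT against THY1 gave 1.64 for Meioc and 1.33 for Ythdc2; THY1 at P14 against P12 gave -1.04 for Stra8 and 0.075 for Meioc; KIT at P12 against P7 gave 0.88 for Ythdc2; P0 OCT4-GFP against THY1 gave -1.50 for Meioc and -1.51 for Ythdc2; P7 OCT4-GFP against THY1 gave 0.30 for Stra8 and -1.24 for Ythdc2; VASA THY1 against THY1 gave 0.79 for Stra8 and 0.44 for Meioc. Of all genes passing in KIT against THY1, the share that was higher went from 50.5% to 38.8% at P7, from 41.7% to 8.55% at P12 and from 35.4% to 81.7% at P14. Quantile normalization gave 1.14 for Stra8 in KIT at P12 against P7. The count of all genes passing in a direction moved by over 1.5 times in 26 of 26 instances under the 4-fold rule, 20 of 26 under germ cell scaling, 6 of 8 with VASA THY1, 6 of 26 with no minimum FPKM, and 1 of 26 under each pseudocount and under quantile normalization. No paired analysis was possible because the table holds 1 value per group, and leaving out replicates was not run for the same reason.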
